A study of Oryctolagus cuniculus with 6 samples.

Results

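The genes described here build the machinery that copies DNA once per cell cycle and then separates the copies in mitosis. They were chosen by the gene descriptions on a rabbit expression array: any non-control probe described with the words centromere protein, cell division cycle, minichromosome maintenance, aurora kinase, polo-like kinase, origin recognition complex, spindle or condensin. This found 145 probes for 60 genes among the 23387 genes and unnamed features of the array. Of the 60, 59 exceeded background clearly on 3 or more of the 6 arrays and were tested among 20238 such features. A total of 55 were well above background on all 6 arrays. CENPO, a centromere protein, was not well above background on any array and has no fold. FAM83D was well above background on 4 arrays, CDC20B on 3, CENPE on 5 and CDCA5 on 5. The words also caught 6 genes with other roles (AFG2A, AURKAIP1, CDC123, CDC37L1, MAPK1IP1L and SEPTIN7), which were kept under the same rule.

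The tissue was newly formed tissue from circular defects, 5 mm wide, cut in the skull (parietal bone) of male New Zealand White rabbits aged 4 months. Each of 24 rabbits received 4 defects, of which 2 received 0.2 g of HPD (human particulated dentin, by the series title), and the others were left empty as controls. The 6 groups are the empty control and HPD on days 3, 5 and 7 after surgery, each with 1 array (n = 1), and all animals shared the surgery and the anaesthetic. Whether an array holds RNA pooled from several animals is not given in the sources used here. The p-values set an effect against no more than how far the HPD difference varies between days over the 6 arrays, which may be technical. The design text speaks of blood samples as well, while all 6 labels name newly formed tissue.

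Before division, a cell marks its replication origins with the origin recognition complex, and CDC6 then helps to load the ring of MCM proteins that will unwind the DNA. In mitosis CDK1, the aurora kinases and the polo-like kinases drive the condensation and alignment of chromosomes, condensin compacts them, the kinetochore ties each centromere to spindle fibres, and the anaphase-promoting complex releases the sister chromatids. Most of these transcripts are made in dividing cells and are low in resting ones. In a healing bone defect, dividing cells can include precursors of blood and immune cells as well as the fibroblast and bone-forming cells of the new tissue, so a bulk RNA level cannot tell fewer dividing cells from less RNA per cell.

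Each level below is the log2 intensity of a gene's brightest probe minus the array's 75th percentile, so it is a level within its own array and is not compared between genes. The probes are 60 bases long, and every value of a gene rests on the bases its probe holds. The first 6 shown are reporting probes of members well above background on all 6 arrays. Among such members these had the lowest day 7 minus day 3. Positions are those of the array's own annotation on oryCun2, and the AURKA and MCM7 probes have no placed position there.
SKA1: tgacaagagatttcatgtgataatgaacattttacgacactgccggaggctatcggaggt
AURKA: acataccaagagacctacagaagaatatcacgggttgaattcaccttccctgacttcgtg
MCM7: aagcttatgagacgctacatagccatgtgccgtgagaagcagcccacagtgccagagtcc
CDC6: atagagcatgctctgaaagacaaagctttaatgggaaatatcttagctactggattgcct
NCAPH: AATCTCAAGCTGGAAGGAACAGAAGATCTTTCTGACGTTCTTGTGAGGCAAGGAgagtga
MCM5: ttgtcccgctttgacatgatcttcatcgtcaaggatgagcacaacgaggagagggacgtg

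The SKA1 probe lies at chr9:91113183-91113242 on the plus strand, the CDC6 probe at chr19:41467117-41467176 on the plus strand, the NCAPH probe at chr2:94957140-94957199 on the minus strand and the MCM5 probe at chr4:86044119-86044178 on the minus strand. Capitals in the NCAPH probe mark the 54 bases that all 5 NCAPH probes share. Those probes differ by a shift of a few bases and gave nearly the same contrast, with day 7 minus day 3 between -1.19 and -1.14. Of the 59 reporting probes and that of CENPO, 52 lie on a placed chromosome and 18 of them cover more genome than their own length, that is, they cross an intron.

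Overlapping probes did not always behave alike, which sets how far a single gene can be read. The CDC25A probes are shown for that reason, with capitals for the 55 bases that all 5 of them share. The first is the reporting probe.
CDC25A reporting probe: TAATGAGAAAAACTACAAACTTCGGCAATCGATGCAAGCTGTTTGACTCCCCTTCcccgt
CDC25A second probe: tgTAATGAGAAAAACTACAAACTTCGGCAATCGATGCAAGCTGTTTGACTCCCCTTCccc
CDC25A last probe: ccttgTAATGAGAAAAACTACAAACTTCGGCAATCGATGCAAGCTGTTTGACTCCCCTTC
They read a transcript from chr9:15991784-15993673 (reporting probe, minus strand, across an intron). The HPD effect was 0.23 by the reporting probe and 1.04 by the second, and the last was well above background on 1 array. CENPO had 5 probes that share 56 bases, and none of them was well above background on any array. The end probes are printed to show the stretch of sequence on which this rests.
CENPO reporting probe: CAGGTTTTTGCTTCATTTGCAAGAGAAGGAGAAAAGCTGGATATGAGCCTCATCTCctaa
CENPO last probe: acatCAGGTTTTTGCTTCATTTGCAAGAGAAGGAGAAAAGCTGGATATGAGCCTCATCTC
These lie at chr2:173930689-173930748 and chr2:173930685-173930744, both on the plus strand. Over the 30 members with several probes well above background on all 6 arrays, the probes of 6 genes differed in the sign of day 7 minus day 3 and those of 8 in the sign of the HPD effect. The median SD between probes of 1 gene was 0.10 for the former and 0.06 for the latter.

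Over the week the division genes stood lower. The median over the 59 members was -0.37 for day 7 minus day 3, against -0.01 over all features tested. The 7 reference genes used of 8 listed (such as GAPDH and ACTB) had a median of -0.32, with 5 of the 7 lower. The median was -0.12 over members and -0.42 over reference genes with another background correction, normexp, which fits the background from the raw spot and local background signals. With the main setting the median over members was -0.31 within the controls and -0.39 within HPD, where all features had 0.04 and -0.06. Of the members, 38 were lower on day 7 than on day 3 in both treatments, against 36.0% of all features, and 12 were higher in both, against 34.4%. All 20 members past an unadjusted p of 0.05 in this contrast are named below with their roles: 18 were lower, against 10.1% of all features, and 2 were higher (KIZ and CSPP1), against 10.7%. After Benjamini-Hochberg adjustment over all features in the limma fit, 0 members were called, against 0.00494% of all features, and the smallest adjusted p among members was 0.117. The background correction changed this count: with normexp, 8 members were called, against 5.21% of all features. They were NCAPH, AURKA, MCM4, CDC20, MCM7, SKA1 and INCENP as lower and KIZ as higher, with limma adjusted p from 0.0119 to 0.0498. The median over all features was 0.17 there.

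The members farthest apart came from licensing, the helicase, the mitotic kinases, the kinetochore and condensin. AURKA, SKA1, CDCA5, NCAPH, CDC6, MCM4 and MCM7 were at least 2-fold lower on day 7 than on day 3 in both treatments, which makes 7 members against 3.08% of all features. No member was at least 2-fold higher in both, against 2.61%. A steady order was also seen: 12 members were lower on each later day in both treatments (AURKA, CDC20, CDC20B, INCENP, MCM3, MCM4, MCM7, MCM8, NCAPD2, NCAPH, PLK4 and SKA1), against 6.74% of all features. For CDC20B the later order with HPD sets 2 dim values against each other. CSPP1 was the 1 member higher on each later day in both, against 7.89%.

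**Figure D1:**
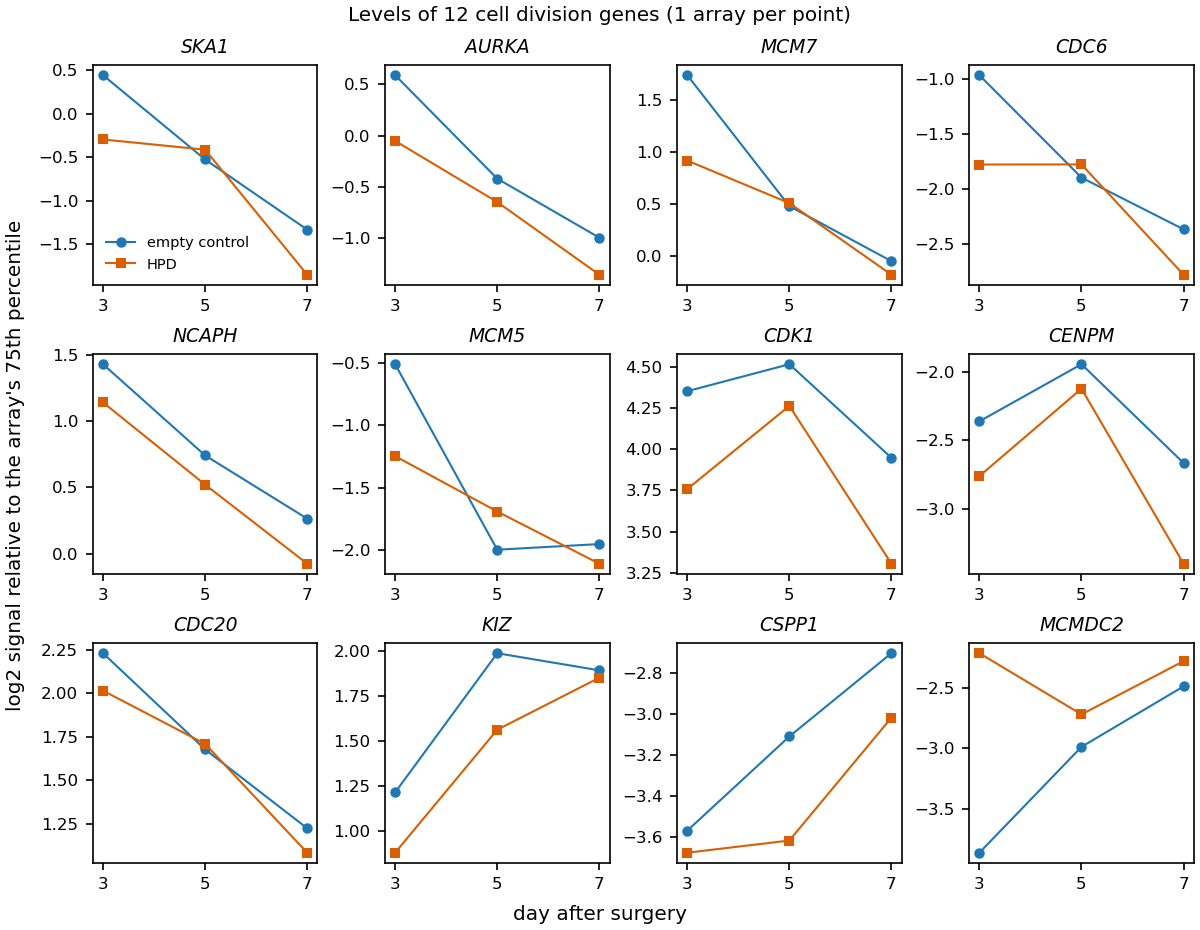
Levels of 12 members by day, as log2 signal relative to the array's 75th percentile on the vertical axis and day after surgery on the horizontal axis (each point is 1 array, blue circles are empty controls and orange squares are HPD, and each panel has its own scale). SKA1, AURKA, MCM7, CDC6, NCAPH and MCM5 run downward from day 3 to day 7 in both treatments, while KIZ and CSPP1 are higher on day 7 than on day 3.

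Origin licensing was led by CDC6, the loader of the MCM ring. In controls CDC6 stood at -0.96 on day 3, -1.89 on day 5 and -2.36 on day 7. With HPD it stood at -1.78, -1.77 and -2.78. The control array of day 3 was the highest of the 6 and the HPD array of day 7 the lowest. The ratio of day 3 to day 7 was 2.64-fold in controls and 2.002-fold with HPD, and the fitted contrast was -1.20 (SE 0.27, limma adjusted p = 0.146). The origin recognition complex is the platform on which CDC6 acts. Over ORC1 to ORC6 the contrast ran from -0.73 for ORC5 to 0.27 for ORC4. ORC4 was higher on day 7 in both treatments, at 1.30 on day 3 and 1.63 on day 7 in controls, and 1.07 and 1.26 with HPD.

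ORC5 shows how a single array and a single probe can set a value. In controls it stood at -0.76, -1.14 and -0.70 on days 3, 5 and 7, and with HPD at -0.40, -0.76 and -1.93. The HPD array of day 7 was alone at the low end. The fitted contrast was -0.73 (SE 0.46, limma adjusted p = 0.415) by the reporting probe and -0.09 and -0.05 by the others.

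All 6 members of the replicative helicase, MCM3, MCM4, MCM5, MCM6, MCM7 and their partner MCM10, were lower on day 7 than on day 3 in both treatments, with a median contrast of -0.90. MCM3 to MCM7 are subunits of the ring that unwinds DNA ahead of the fork, and MCM10 helps to start it. MCM7 stood at 1.73, 0.48 and -0.05 in controls on days 3, 5 and 7, and at 0.92, 0.51 and -0.18 with HPD. Both day 3 arrays lay above all 4 later ones. The ratio of day 3 to day 7 was 3.43-fold in controls and 2.13-fold with HPD, and the fit gave -1.44 (SE 0.26, limma adjusted p = 0.126). MCM5 had the same groups apart, at -0.51, -2.0003 and -1.95 in controls and -1.25, -1.69 and -2.11 with HPD. Its day 5 and day 7 values were close to each other, with day 7 minus day 5 at -0.19 (SE 0.29, limma adjusted p = 0.818). In controls its distance lay between day 3 and day 5 (-1.49), while with HPD it was -0.45 from day 3 to day 5 and -0.42 from day 5 to day 7. MCM4 stepped down at each day, from 0.65 to -0.12 and -0.45 in controls and from 0.53 to 0.07 and -0.59 with HPD. MCM3 and MCM6 had smaller contrasts of -0.69 and -0.56, and MCM10 the smallest at -0.32. The second MCM10 probe, which shares 28 bases with the reporting one, gave -1.15 for MCM10.

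Relatives of the MCM family that are not part of the loaded ring were mixed. MCM8, which with MCM9 works in DNA repair and meiotic recombination, had a contrast of -0.68 and was lower on day 7 in both treatments. MCM9 had 0.47, MCM3AP, an RNA export factor named for binding MCM3, had 0.33, and MCMDC2, a meiosis gene, had 0.65. The median over these 4 was 0.40. MCMDC2 stood at -3.86, -2.99 and -2.49 in controls and at -2.22, -2.72 and -2.28 with HPD on days 3, 5 and 7. Its control array of day 3 was the lowest and its HPD array of day 3 the highest, so the sign of its contrast over days turned to -0.05 without that control array.

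Among the regulators of entry into mitosis, CDK1, the kinase that drives it, was highest on day 5 in both treatments, while the 6 helicase genes were highest on day 3, apart from MCM6 with HPD (3.00 on day 3 and 3.03 on day 5). In controls CDK1 stood at 4.35, 4.52 and 3.95 on days 3, 5 and 7, and with HPD at 3.76, 4.26 and 3.30. Day 7 was the lowest day in both. Day 7 minus day 5 was -0.77 (SE 0.19, limma adjusted p = 0.575) and day 7 minus day 3 was -0.43 (SE 0.19, limma adjusted p = 0.279). CDC25C, a phosphatase that activates CDK1, had -0.56 for day 7 minus day 3, and CDC25A had -0.18. The other CDC25A probes well above background on all 6 arrays gave -0.36 and 0.25.

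AURKA, a kinase of the spindle poles, was among the steadiest members. The array describes this gene as aurora kinase B-like, while the RefSeq gene table of assembly mOryCun1.1 names it AURKA. It stood at 0.59, -0.42 and -0.99 in controls and at -0.05, -0.65 and -1.35 with HPD on days 3, 5 and 7. Both day 3 arrays were above both day 5 arrays, which were above both day 7 arrays. The ratio of day 3 to day 7 was 3.00-fold in controls and 2.47-fold with HPD, and the fit gave -1.44 (SE 0.19, limma adjusted p = 0.117). PLK4, which starts the doubling of centrioles, had -0.64. PLK1 had -0.13, PLK2, which is also known as a stress-responsive gene, had 0.39, and AURKC had 0.04. The AURKC probes ran from -0.21 to 0.04.

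In the machinery that ends mitosis, CDC20, the activator of the anaphase-promoting complex, had the largest contrast measured on all 6 arrays. It stood at 2.23, 1.68 and 1.22 in controls and at 2.01, 1.71 and 1.08 with HPD. The arrays were ordered by day in both treatments, and the fit gave -0.97 (SE 0.17, limma adjusted p = 0.12). The core subunits CDC23 and CDC27 had 0.04 and -0.17. CDC34, a ubiquitin-conjugating enzyme of the G1 to S step, had 0.48 and was higher on day 7 than on day 3 in both treatments. The other CDC34 probes gave 0.24, 0.19 and -0.04. CDC20B, a CDC20 relative better known from multiciliated cells, was dim on 3 arrays, among them the control of day 7. By the dim probe's own signal there, its control level was 1.97-fold higher on day 3. The other CDC20B probes, well above background on at most 2 arrays, gave day 7 minus day 3 from -0.53 to 1.28.

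Centromere and kinetochore genes were lower as a group: 10 of 11 had a negative contrast, with a median of -0.55, and 9 were lower in both treatments. Over all 20238 features, 10357 had a negative contrast and 36.0% were lower in both treatments. SKA1, which helps kinetochores hold shrinking spindle fibres, had the lowest contrast of all members. In controls it stood at 0.44, -0.53 and -1.33, and with HPD at -0.30, -0.41 and -1.85. The 2 day 7 arrays lay below the other 4. The ratio of day 3 to day 7 was 3.43-fold in controls and 2.94-fold with HPD, and the fit gave -1.67 (SE 0.26, limma adjusted p = 0.117). Day 7 minus day 5, which lies within 1 slide, was -1.12 (SE 0.26, limma adjusted p = 0.575). The second SKA1 probe, which shares 20 bases with the reporting one, gave -1.42 for day 7 minus day 3.

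INCENP, the scaffold of the chromosomal passenger complex that carries aurora B, had -0.98, and its partner CDCA8 had -0.55. CENPN and CENPP, members of the constitutive centromere network, had -0.67 and -0.84. CENPM, of the same network, stood highest on day 5, at -2.36, -1.94 and -2.67 in controls and at -2.76, -2.12 and -3.40 with HPD. Its day 7 minus day 5 contrast was -1.001 (SE 0.21, limma adjusted p = 0.554), the smallest adjusted p of any member in that comparison. SPC25 of the NDC80 complex and the gene described as centromere protein Q-like (LOC100358413) had -0.55 and -0.46. CENPB, CENPC and CENPE had contrasts between -0.19 and 0.05. The 0.05 is that of the reporting CENPC probe, and the other CENPC probes gave -0.54, -0.40 and -0.08.

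Condensin and sororin genes had the lowest median of any role, -1.19 over 3 genes. NCAPH, the kleisin subunit that closes the condensin ring, stood at 1.43, 0.74 and 0.26 in controls and at 1.14, 0.52 and -0.08 with HPD. The arrays were ordered by day in both treatments and the days did not overlap. The ratio of day 3 to day 7 was 2.25-fold in controls and 2.33-fold with HPD, and the fit gave -1.19 (SE 0.16, limma adjusted p = 0.117). NCAPD2, another condensin subunit, stood at 1.01, 0.18 and -0.31 in controls and at 0.50, 0.05 and -0.04 with HPD. CDCA5 (sororin, which guards sister chromatid cohesion) was not well above background with HPD on day 7. By the dim probe's own signal there, day 3 was 2.71-fold higher with HPD. In controls its ratio of day 3 to day 7 was 2.46-fold.

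Spindle and centrosome genes went both ways, with a median contrast of 0.17 over 6 genes. KIZ, a centrosome protein and polo-like kinase substrate, stood at 1.21, 1.99 and 1.89 in controls and at 0.88, 1.56 and 1.85 with HPD. Day 3 was the lowest day in both treatments, and the fit gave 0.82 (SE 0.18, limma adjusted p = 0.145) for day 7 minus day 3. CSPP1, a spindle pole and cilium protein, stood at -3.57, -3.11 and -2.71 in controls and at -3.67, -3.62 and -3.02 with HPD, with a contrast of 0.76 (SE 0.18, limma adjusted p = 0.152). SFI1, a centrosome protein, had 0.45. NUSAP1, a spindle microtubule binder, had -0.37, and FAM83D, which brings a kinase to the spindle, was at least 1.80-fold higher on day 3 than on day 7 with HPD. SASS6, the scaffold of the centriole cartwheel, had -0.12.

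Of the 3 chromatin and transcription members, CDCA7, a target of the growth regulator MYC, had -0.59, CDCA7L had -0.24 and ATAD2 had -0.09. The 6 members with other roles had a median of 0.04, from -0.41 for AFG2A to 0.51 for SEPTIN7, a cytoskeletal septin. The other AFG2A probes, all well above background on all 6 arrays, gave 0.07, 0.16 and -0.02. Leaving the 6 members with other roles out moved the median over members from -0.37 to -0.46. Members well above background on all 6 arrays had -0.32.

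**Figure D2:**
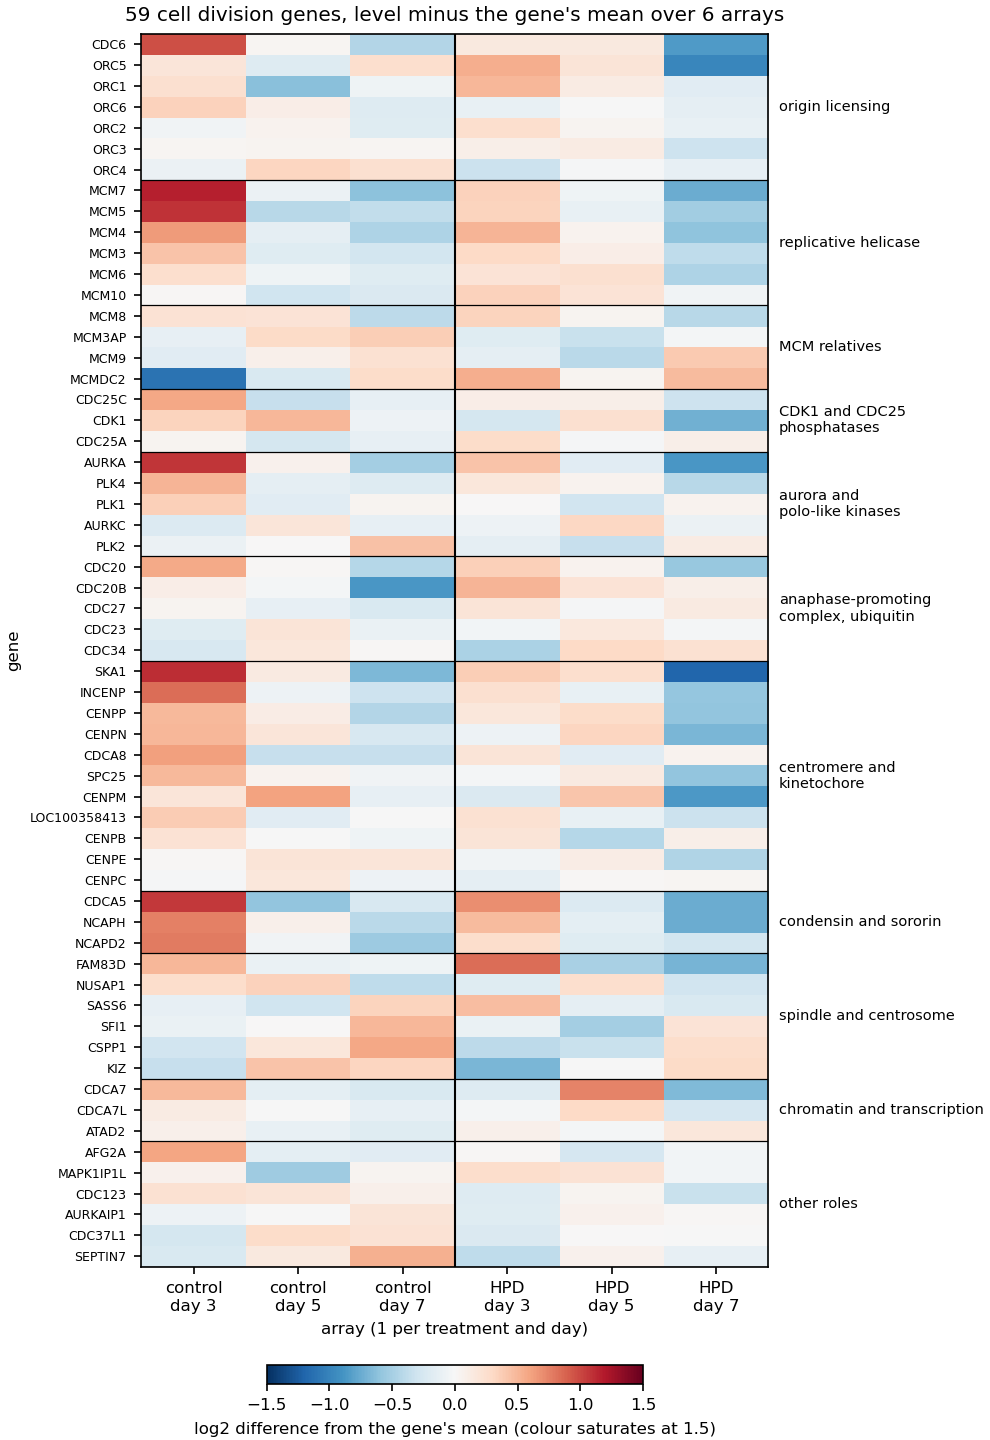
Level of each of the 59 members on each array minus that gene's mean over the 6 arrays (log2, colour), in rows grouped by role and in columns by treatment and day; CDC20B, FAM83D, CENPE and CDCA5 were not well above background on every array. The control column of day 3 is red for most helicase, condensin and centromere genes, and the HPD column of day 7 is blue for most of them, while KIZ and CSPP1 run the other way.

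Day 3 was the highest day for 36 members in controls, against 39.5% of all features, and for 29 with HPD, against 41.8%. The members' shares were 61.0% and 49.2%, so with HPD a day 3 maximum was little more common than over all features. In day 5 minus day 3, 8 members passed an unadjusted p of 0.05 as lower, against 10.1% of all features, and 2 as higher, against 6.30%. Those shares are also near the background. After adjustment 0 members were called in the limma fit, against 0.00494% of all features. Day 7 minus day 5 had 12 members past an unadjusted p of 0.05 as lower, against 3.34% of all features, and 2 as higher, against 4.74%. After adjustment the limma fit called 0 members in it, against 0.00% of all features. The median over members was -0.15 for day 5 minus day 3 and -0.19 for day 7 minus day 5, where all features had -0.06 and 0.08. The 7 reference genes had medians of 0.03 and -0.20 in the same contrasts, with 5 of the 7 lower in day 7 minus day 5.

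Slide and day overlap in this design. Both arrays of day 3 lay on slide 1 and the others on slide 2, so differences between day 3 and later days cannot be told apart from the slide. Day 7 minus day 5 was measured within a slide. The 12 members lower in it by unadjusted p were AURKA, CDC20, CDC6, CDK1, CENPM, CENPN, CENPP, MCM4, MCM8, NCAPH, NUSAP1 and SKA1. That count rests on 1 array per treatment and day. Leaving out single arrays gave a median over members from -0.26 to -0.11 in this contrast. With normexp it was -0.10, with 36 of 59 lower, where all features had a median of 0.06. With the median shift it was -0.27, with 43 of 59 lower.

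**Figure D3:**
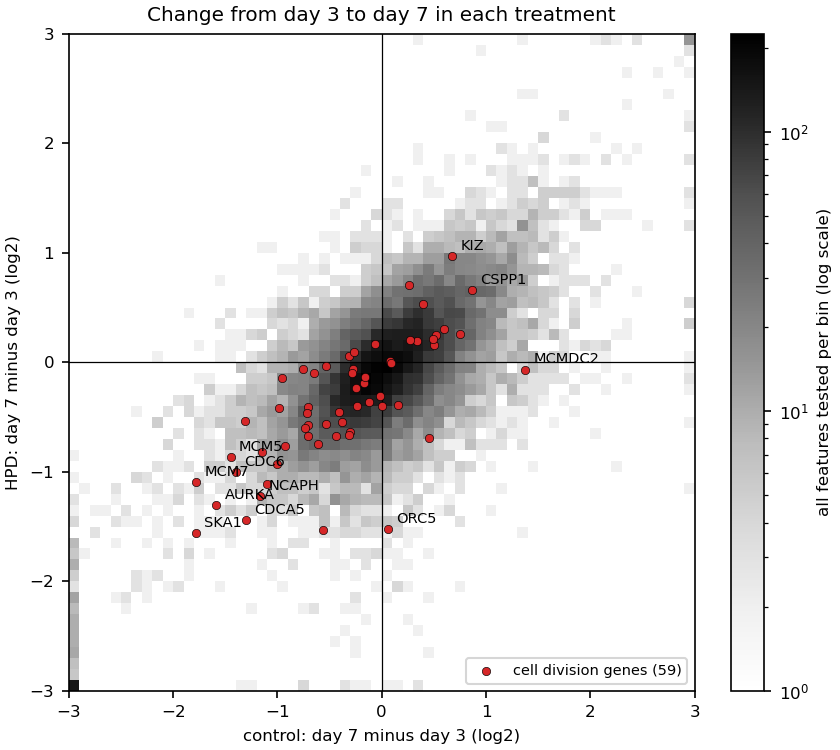
Day 7 minus day 3 (log2) in controls on the horizontal axis and with HPD on the vertical axis; grey squares count all 20238 features tested (log colour scale, values beyond 3 drawn at the edge) and red points are the 59 members. Of the members, 38 lie in the lower left part and 12 in the upper right, with SKA1, AURKA, MCM7 and NCAPH toward the lower left and MCMDC2 and ORC5 away from the diagonal.

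The HPD graft set against the empty defect gave smaller distances. Over the 3 days the median HPD effect was -0.12 over members and 0.09 over all features. A negative estimate was found for 43 of 59 members, against 7554 of all 20238 features. In the limma fit 0 members were called after adjustment, against 0.00% of all features, and the smallest adjusted p among members was 0.555. The unadjusted p was under 0.05 for 2 members as lower, against 1.39% of all features, and for 1 as higher, against 7.18%. The higher one was CDC20B, which was dim on 3 arrays, and among the 55 members well above background on all 6 arrays 0 were higher at that level. All 5 CDC20B probes share 55 bases. The others were well above background on at most 2 arrays and gave HPD effects from -0.84 to -0.36. A total of 13 members were lower with HPD on all 3 days, against 11.0% of all features, and 6 were higher on all 3, against 26.4%. By single day the member median was -0.14 on day 3, 0.05 on day 5 and -0.16 on day 7, so day 5 was the exception. Without day 3 the median HPD effect over members was -0.05, with 35 of 59 negative. That fit lies within slide 2 and gives the differing day 5 more weight. Its median over all features is not given here. With 1 array per treatment on each day there is no replicate check of a single day.

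CDK1 had the lowest HPD effect, -0.50 (SE 0.15, limma adjusted p = 0.555). It was lower with HPD on all 3 days, with differences of -0.60, -0.25 and -0.64, and its 3 probes gave HPD effects of -0.50, -0.49 and -0.54. AURKA was also lower on each day, at -0.64, -0.23 and -0.36, with an effect of -0.41 (SE 0.15, limma adjusted p = 0.555). For CENPM the differences were -0.40, -0.18 and -0.74, and for NCAPH -0.29, -0.22 and -0.34. The other members lower on all 3 days were CDC123, CENPE, CSPP1, INCENP, KIZ, MCM3AP, ORC4, PLK2 and SEPTIN7, though CENPE was dim with HPD on day 7. The members higher on all 3 days were CDC20B, CDC25A, CDC27, AURKC, MCM10 and MCMDC2. For CDC20B only the control of day 5 and both arrays of day 3 were well above background, so its direction on days 5 and 7 is not measured. The 4 other AURKC probes were lower with HPD on day 7, from -0.54 to -0.12. MCM10 had an HPD effect of 0.33 (SE 0.14, limma adjusted p = 0.555), with 0.32, 0.50 and 0.16 on days 3, 5 and 7.

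On day 3, 41 members were lower with HPD, against 35.5% of all features, with a median of -0.14 against 0.14. All 11 centromere and kinetochore members were lower with HPD that day, with a median of -0.40. The lowest were MCM7 at -0.82, CDC6 at -0.81, SKA1 at -0.74 and MCM5 at -0.74. Not all helicase genes shared this: MCM3, MCM4 and MCM6 had -0.13, -0.12 and -0.05. The highest was MCMDC2 at 1.65, or 3.13-fold, and it was the 1 member at least 2-fold higher, against 4.64% of all features. Its second probe, well above background on 4 arrays, gave 0.33 there. No member was at least 2-fold lower on day 3, against 2.92%.

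On day 5 the members were split, with 27 lower with HPD, against 41.5% of all features, and a median of 0.05 against 0.09. Both medians move with the scaling: with arrays shifted to their median they were -0.08 for members and -0.04 for all features, and with normexp -0.09 and -0.10. With a gene's probes averaged the member median was -0.02. No member was 2-fold apart, lower or higher, where all features had 2.11% and 5.61%. The highest was CDCA7 at 0.89 and the lowest MCM3AP at -0.62. CDC6, MCM5, MCM7 and SKA1, the lowest of day 3, were at 0.12, 0.31, 0.03 and 0.11. All 6 helicase members were higher with HPD on day 5, with a median of 0.29, and 5 of the 6 were with normexp or the median shift.

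On day 7, 40 members were lower with HPD, against 43.3% of all features, with a median of -0.16 against 0.06. The HPD array of that day had the smallest share of spots well above background, 78.1%, against 85.3% in the control. FAM83D, CENPE, CDC20B and CDCA5 were all dim on it. Its part in the low values was not tested. ORC5 was the 1 member at least 2-fold lower, at -1.23, against 2.12% of all features. The other ORC5 probes gave -0.27 and -0.19 on that day. No member was at least 2-fold higher, against 1.72%. CENPM at -0.74, SEPTIN7 at -0.65 and CDK1 at -0.64 came next. CDCA8, CDC27, ATAD2 and NCAPD2 were the highest of those well above background on both arrays, at 0.40, 0.37, 0.35 and 0.27. Whether the HPD difference itself changed between days was not tested, because each day has 1 array per treatment.

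**Figure D4:**
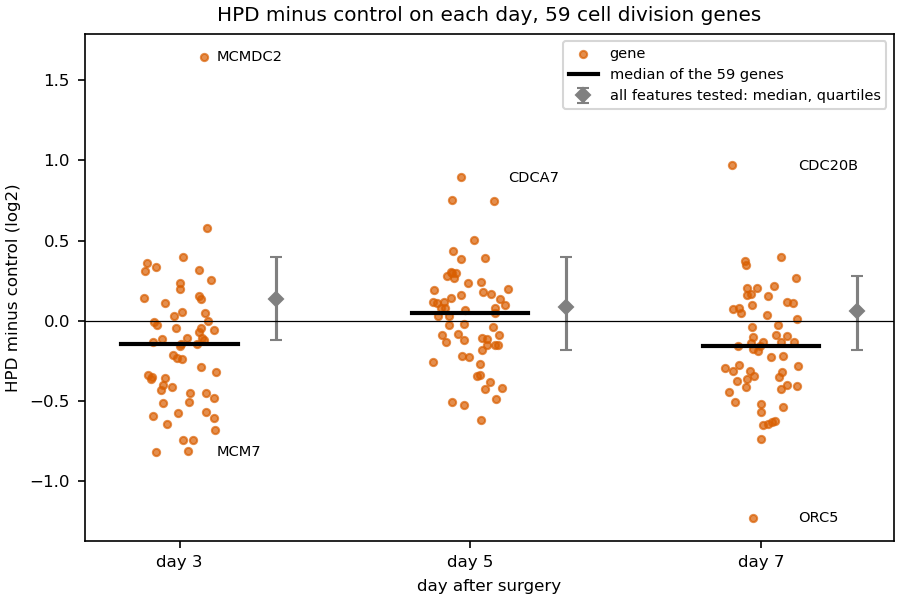
HPD minus control (log2, vertical axis) on each day for the 59 members, as orange points spread sideways for clarity; black bars are member medians and grey diamonds with whiskers the median and quartiles of all features tested. The member medians are -0.14, 0.05 and -0.16 (that of day 5 is -0.09 with normexp and -0.08 with the median shift, where all features have -0.10 and -0.04, and -0.02 with a gene's probes averaged), and MCMDC2 on day 3 and ORC5 on day 7 are the farthest out (CDC20B, the highest on day 7, was not well above background in that day's control).

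Genes of the same pathways outside the description rule were read from lists. For comparison with their counts, 10357 of all 20238 features had a negative day 7 minus day 3, and 6276 with normexp. In the list of cyclins and their kinases, 8 of 10 had a negative day 7 minus day 3, with a median of -0.60, and 3 passed an unadjusted p of 0.05 as lower and 0 as higher, against 10.1% and 10.7% of all features. With normexp the median was -0.26, with 8 of 10 negative. CCNB1 and CCNB2, the mitotic partners of CDK1, both had -0.87, and CCNE1, which drives entry into S phase, had -1.12. CCND1, a growth-factor-driven G1 cyclin, had 0.34. In the list of replication enzymes and nucleotide supply, 20 of 22 were negative with a median of -0.53, 11 passed an unadjusted p of 0.05 as lower and 2 as higher, against 10.1% and 10.7% of all features. PCNA, the sliding clamp, had -0.79, RRM2, a subunit of ribonucleotide reductase, had -1.39, and LIG1, which seals the new strand, had -1.58. RFC1, a clamp loader subunit, had 0.76.

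In the list of kinetochore, checkpoint, kinesin and chromosome genes, 18 of 19 were negative with a median of -0.59, 9 passed an unadjusted p of 0.05 as lower, against 10.1% of all features, and 1 (KIF20A) as higher, against 10.7%. BUB1, a checkpoint kinase, had -1.22, UBE2C, the conjugating enzyme of the anaphase-promoting complex, had -1.28, and MKI67, the antigen used to stain dividing cells, had -0.38. KIF20A, a kinesin of cell cleavage read by 1 probe, had 0.66. All 8 transcription factors of the cell cycle list were negative with a median of -0.49, of which 4 passed an unadjusted p of 0.05 as lower, against 10.1% of all features, but with normexp 4 of 8 were negative and the median was -0.01. MYBL2 and FOXM1, activators of late cell cycle genes, had -1.10 and -0.66. The list of cell cycle brakes had a median of -0.16, with 8 of 11 negative. None of the genes in these lists was called after adjustment in the limma fit.

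The HPD difference on day 3 had a negative median in all 5 lists, at -0.47 for cyclins and kinases, -0.20 for replication enzymes, -0.34 for kinetochore and kinesin genes, -0.14 for transcription factors and -0.22 for brakes, against 0.14 over all features. The other days did not repeat this. In the same order the medians on day 5 were 0.07, 0.07, 0.02, -0.01 and 0.28, against 0.09 over all features. On day 7 they were -0.27, -0.14, -0.30, 0.13 and 0.10, against 0.06. Over the 3 days the 11 brakes had a median HPD effect of 0.13, near the 0.09 of all features, with 7 positive and 4 negative. Among them CDKN1A, the p21 inhibitor of CDKs, was higher with HPD on all 3 days, as were 26.4% of all features. Its differences were 0.77, 0.72 and 0.53 (effect 0.67, SE 0.14, limma adjusted p = 0.555). BTG2, an antiproliferative gene, had -0.33, 1.63 and 0.99.

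A further 5 genes of the same machinery are on the array under descriptions that do not hold the chosen words. AURKB, the passenger complex kinase, had a day 7 minus day 3 of -1.36 (SE 0.21, limma adjusted p = 0.117), and SPAG5, a spindle protein, had -1.08. CDCA2, NCAPG and CENPK had -0.71, -0.41 and -0.24. All 5 were negative, as were most members.

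**Figure D5:**
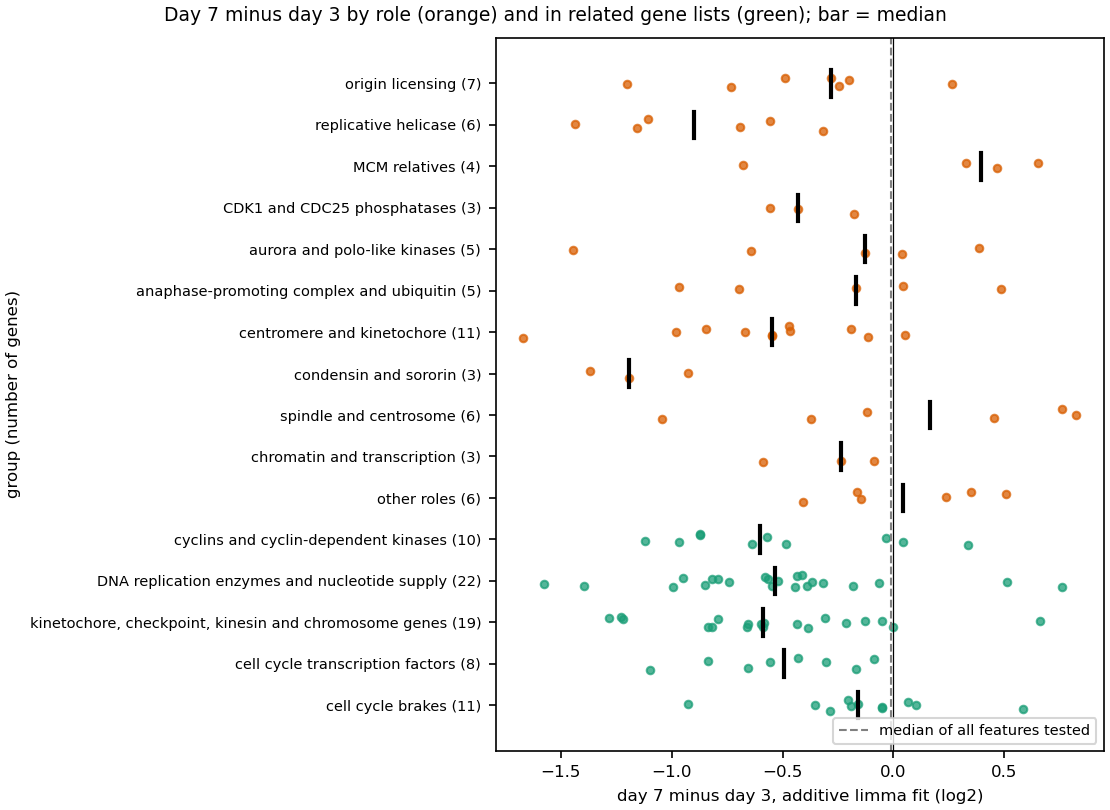
Day 7 minus day 3 from the additive fit (log2, horizontal axis) for each gene (points) by role among the 59 members (orange) and in 5 lists of related genes that are not members (green); black bars are medians and the dashed line is the median of all features tested. Helicase and condensin genes and 10 of 11 centromere genes lie to the left of the line, and these roles have medians of -0.90, -1.19 and -0.55, while MCM relatives and spindle genes have medians of 0.40 and 0.17.

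Markers of other cell types moved between the same arrays. The 6 granulocyte precursor markers used of 12 listed (MPO, MS4A3, LCN2, CAMP, EPX and PRG3) were all lower on day 7 than on day 3, and their summed level on the linear scale of the array was 395 in the control and 90.2 with HPD on day 3, against 1.36 to 4.40 on the later days. The summed level of the 59 members on that scale was 99.5 and 78.7 on day 3 and ran from 64.2 to 90.0 on later days. Such sums weigh bright probes most, and CDK1 with the CDC25 genes made up 20.9 and 13.9 of the member sums on day 3. On day 3, all 6 of these precursor markers were lower with HPD, with a median of -2.85, and 7 of 8 red cell markers were lower, with a median of -1.93. The summed red cell level ran from 2079 to 3307 over the arrays. Lymphocyte markers (6 used of 8 listed) summed to 8.38 and 6.92 on day 3 and to between 4.60 and 7.84 later, and mature neutrophil markers (4 of 7) to 385 and 137 on day 3 and to between 8.27 and 234 later. Macrophage markers (6 of 8) summed to 29.6 and 43.4 on day 3 and to between 17.4 and 34.6 later. Fibroblast markers (5 of 6) summed to 342 and 404 on day 3 and to between 684 and 1909 later, and osteoblast markers (5 of 8) to 35.4 and 35.6 on day 3 and to between 46.2 and 181 later. Endothelial markers (4 of 5) summed to between 2.63 and 4.30. No marker used was at 0, and every marker used was well above background on all 6 arrays. The part of these cell types in the levels of the members was not tested. In day 7 minus day 5, where the member median was -0.19, the marker medians went both ways. They were -1.18 for mature neutrophils, -0.69 for red cells, -0.38 for lymphocytes, -0.15 for macrophages and -0.12 for endothelium. For granulocyte precursors, osteoblasts and fibroblasts they were 0.57, 0.70 and 0.73.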

How the data were processed

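The deposited values are spot intensity values of 6 one-colour arrays on a linear scale, made with Agilent's Feature Extraction with background subtraction and detrending, per the file headers. RNA was column-purified, amplified and labelled with Cy3, per the labels' protocols. The sources used here name no normalization across arrays. There were 45220 spots (43603 probes) on an array, of which 78.1% to 86.4% were well above background and 0 were saturated. The lowest share was that of the HPD array of day 7 and the highest that of the HPD array of day 3. The 75th percentile ran from 309 to 471.

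From these, each array's log2 processed intensity was centred on its 75th percentile over non-control probes, without 41 probes marked as outliers. Genes took their name from the array's descriptions and a RefSeq gene table (assembly mOryCun1.1, names only) and their value from the brightest probe. Features well above background on at least 3 arrays were fitted with limma 3.58.1 in R 4.3.3, with treatment and day as additive terms and Benjamini-Hochberg adjustment at 0.05 over all of them. This leaves 2 residual degrees of freedom and 2.47 from the prior. The fit was also run on simulated data for the HPD effect only. Those data held no day differences, so the run cannot check the day contrasts or the spread of the real arrays. Each animal carried both kinds of defect per the labels, so day is the block of the HPD effect. A single day was compared without a test, with a 2-fold bound. Where 1 array of a pair was dim, "at least" divides the bright value by the dim probe's own signal or by the lowest signal that was well above background on that array, whichever was higher. For CDC20B and CDCA5 the probe's own signal was higher, so their ratios are measured ratios and not lower bounds. The R package data.table (version 1.17.8) read the files. Tables and plots were made in Python 3.11.15 with matplotlib 3.10.9, numpy 2.4.6 and pandas 2.3.3.

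The members and lists were chosen with earlier results of these data known. Named genes are a preset set of cell cycle genes, the 5 highest and 5 lowest members of each fit and the 4 highest and 4 lowest of each day. Other members are named with their values for completeness. The lists are cyclins, replication enzymes, kinetochore genes, transcription factors, brakes and markers of red cells, granulocyte precursors, neutrophils, macrophages, lymphocytes, osteoblasts, fibroblasts, endothelium and reference genes. Promoter motifs were not analysed here. Alternatives were quantile normalization, the median shift, normexp with an offset of 50, other filters on dim probes, the mean of a gene's probes, no day block and leaving out arrays or days.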

Additional observations from a re-analysis of the deposited data

How the results depend on the processing

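With 1 array per group, the number of arrays and dim signal limit every value. The median over members kept its sign in the 4 fits under all alternatives run, and no member was called except with normexp. For day 7 minus day 3, normexp called 8 members where the main setting called 0, and moved the median over members from -0.37 to -0.12. Quantile normalization moved it to -0.44, and leaving out single arrays gave -0.44 to -0.26. With normexp SKA1 was at -1.18 (limma adjusted p = 0.0212), AURKA at -1.12 (0.0163), MCM7 at -1.34 (0.0206), NCAPH at -1.17 (0.0119) and KIZ at 0.73 (0.0498). MCMDC2 turned to -0.0509 without the control array of day 3 (limma adjusted p = 0.948), and leaving out single arrays gave it -0.0509 to 1.36. For day 5 minus day 3, the median of -0.15 moved to -0.0542 with the median shift and to -0.0492 with normexp, and leaving out single arrays gave -0.28 to -0.14. For day 7 minus day 5, the median of -0.19 moved to -0.0961 with normexp and to -0.27 with the median shift. The median HPD effect of -0.12 moved to -0.26 with the median shift, and leaving out arrays or days gave -0.17 to -0.05. The day 3 median of -0.14 moved to -0.32 with the median shift. The day 5 median of 0.05 moved to -0.0753 with the median shift and to -0.0921 with normexp, where that over all features went from 0.09 to -0.04 and -0.10. The median over all features itself moved by more than 0.1 with normexp, to 0.17 for day 7 minus day 3 and 0.13 for day 5 minus day 3, and with the median shift, to -0.04 for the HPD effect. The cause of these shifts was not tested. No paired analysis was possible beyond the day block of the HPD fit because each treatment and day has 1 array. Dropping the day block cannot move the HPD estimates, since each day holds 1 array of each treatment, and limma called 0 members without it.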
